A study of Mus musculus with 6 samples.

Results

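The subunits of mitochondrial respiratory complexes II, III, IV and V, together with cytochrome c, were examined in BV2 mouse microglial cells with and without knockdown of GCH1, GTP cyclohydrolase I, which starts the synthesis of the cofactor tetrahydrobiopterin. Members were chosen by gene symbol alone. They are the protein-coding genes of GENCODE M21 named Sdha to Sdhd, Cyc1, Cycs, mt-Cytb, mt-Atp6 and mt-Atp8, and those whose symbol begins with Uqcr, mt-Co, Atp5 or Cox followed by 4 to 8. Of 56 genes that meet this rule, 50 were among the 12327 genes of the table, and all 50 passed the filter for the test. The 6 others, Cox4i2, Cox6b2, Cox7b2, Cox8b, Cox8c and a second gene named Atp5o (ENSMUSG00000116933.1), were not analysed here. Complex II had 4 members, all nuclear-coded. Complex III had 9 nuclear-coded members and 1 coded by mitochondrial DNA (mtDNA), complex IV 13 and 3, complex V 17 and 2, and cytochrome c 1 nuclear-coded gene. That gave 44 nuclear-coded and 6 mtDNA-coded members.

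RNA was sequenced from 3 libraries with the genotype label GCH1-KD and 3 labelled negative control. BV2 is an immortalised mouse microglial line, and both groups came from 1 subline grown in high-glucose medium with serum. The knockdown cells had carried an adenovirus with a short hairpin RNA against GCH1 (Ad-shGCH1) for 48 hours. The controls are called Ad-NC in one label and wild type in another, so whether they received a virus is unclear from the labels. The labels do not tell whether libraries of one group were grown as separate cultures. Every p-value therefore reflects library-to-library spread alone, and that spread may be technical.

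The respiratory chain passes electrons from reduced cofactors to oxygen and stores the energy as a proton gradient across the inner mitochondrial membrane. Complex II feeds in electrons from succinate, complex III hands them to cytochrome c, complex IV reduces oxygen, and complex V, the ATP synthase, uses the gradient to make ATP. All subunits of complex II are coded in the nucleus. Complexes III, IV and V combine nuclear-coded subunits with others that are coded by mtDNA and translated inside the organelle. In microglia the balance between this pathway and glycolysis is known to shift with activation.

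Values were FPKM (fragments per kilobase of transcript, scaled to the size of the library), which summed to between 224291 and 230292 per library with medians of 6.28 to 6.44. Depth, estimated from the smallest step between values, came to 5.25 to 5.58 gigabases (Gb) aligned for the controls and 6.32 to 7.61 Gb for the knockdown libraries, with no overlap. Whether this difference moved any value was not tested. Gch1 itself was at 6.89, 7.22 and 7.23 FPKM in the controls and at 3.20, 2.93 and 3.43 FPKM in the knockdown libraries, as labelled. Of 13 microglial and macrophage markers 12 were measured, among them Cd68 at means of 486 and 457 FPKM in control and knockdown and Tyrobp at 265 and 259 FPKM. P2ry12 was not analysed here. Itgam varied widely within groups, at 19.7, 31.1 and 7.22 FPKM in the controls and 19.5, 7.10 and 23.0 FPKM in the knockdown libraries. Low markers were Aif1, at means of 1.99 and 2.53 FPKM in control and knockdown, Tmem119, at 0.567 and 0.599 FPKM, and Cx3cr1. The latter was at 0.597, 0.2998 and 3.16 FPKM in the controls and 0.430, 0.480 and 0.541 FPKM in the knockdown libraries, so control replicate 3 alone placed its control mean above the knockdown mean. The summed level of the 12 was 1075 to 1098 FPKM in the controls and 1024 to 1089 FPKM in the knockdown libraries. The 7 neuron markers were not analysed here. Of the other types, 1 of 5 astrocyte markers (Aldoc, summed level 24.7 to 28.6 FPKM over the 6 libraries), 1 of 5 oligodendrocyte markers (Cnp, 4.89 to 5.80 FPKM), 3 of 8 endothelial and fibroblast markers (Vwf, Flt1 and Acta2, summed 26.6 to 29.4 FPKM) and 1 of 4 lymphocyte markers (Lck, 0.561 to 1.0 FPKM) were measured, and none of these 18 marker genes passed the test.

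The transcripts of the mtDNA-coded members were far more abundant than those of the nuclear-coded ones. On the FPKM scale, which is per length, the 6 mtDNA-coded members had means over the 6 libraries of 855 to 4223, against a median of 43.9 and a range of 3.32 to 165 for the 44 nuclear-coded members. The mtDNA-coded members made up 4.14% to 5.10% of all FPKM in a library and the nuclear-coded members 1.01% to 1.08%. Within complex IV the most abundant nuclear-coded transcript was Cox8a, a small membrane subunit, at a mean of 165 FPKM, and the least abundant was Cox7a1, the isoform of heart and skeletal muscle, at 3.32 FPKM. Atp5b, the catalytic beta subunit of the ATP synthase, led complex V at 115 FPKM, Uqcr10, a small accessory subunit, led complex III at 108 FPKM, and Sdhd, a membrane anchor, led complex II at 76.3 FPKM. At the low end stood Atp5s at 3.85 FPKM for complex V, Uqcrh at 31.6 FPKM for complex III and Sdhc, the other membrane anchor, at 28.3 FPKM for complex II.

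**Figure D1:**
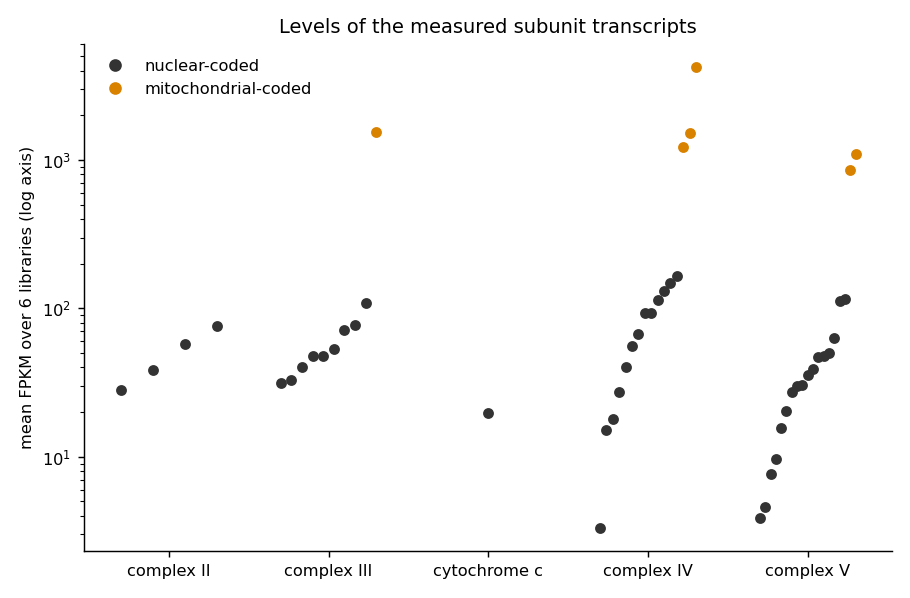
Mean FPKM over the 6 libraries (y axis, log scale) for each of the 50 members, grouped by complex on the x axis, with nuclear-coded members in grey and mtDNA-coded members in orange. The 6 mtDNA-coded members lie between 855 and 4223 FPKM, above every nuclear-coded member (3.32 to 165 FPKM).

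None of the 50 members passed the test between knockdown and control, and most lay close to their control level. With limma, at a Benjamini-Hochberg (BH) adjusted p under 0.05 over all 12222 genes tested, 0 members were called, against 10 genes or 0.0818% of all genes. The lowest adjusted p was 0.107, for Uqcrh. At an unadjusted p under 0.05, 8 members were higher and 1 lower, against 6.47% and 4.82% of all genes. In 10 members every knockdown library lay above every control (20%), and in 2 every one lay below (4%), against 9.99% and 8.36% of all genes. Of the 50 members, 32 had a mean log2 value above control and 18 below (64.0% above, against 53.0% of all genes), and the median log2 fold change was 0.029 against 0.0071 over all genes. Among the 10684 protein-coding genes tested, 50.9% lay above control and the median was 0.0024. In 8.99% of these every knockdown library lay above every control, and in 9.02% every one lay below. Fold changes here are knockdown minus control on the scale of log2(FPKM + 1), which understates those of weakly expressed genes. The limma 95% interval of the fold change lay within 1.5-fold in either direction for 48 of the 50 members, the exceptions being mt-Atp6 and Cox7a1, and within 1.2-fold for 32. Among all 12222 genes tested, 11639 lay within 1.5-fold and 7633 within 1.2-fold, so such narrow intervals are not particular to the members. In bulk RNA, fewer cells with a transcript and less of it per cell cannot be told apart.

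**Figure D2:**
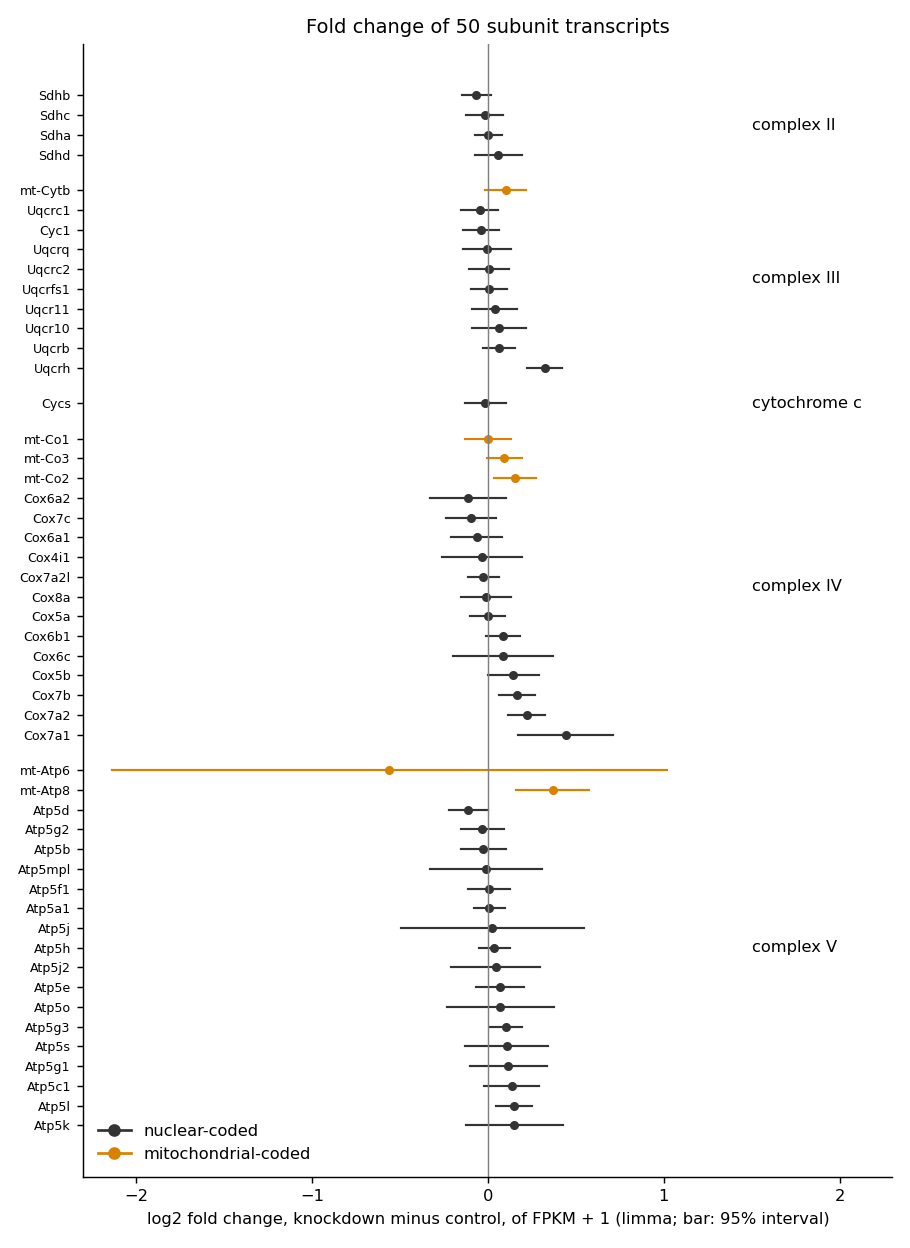
Log2 fold change of each member (x axis, knockdown minus control, points) with its limma 95% interval (bars), ordered within complexes, with nuclear-coded members in grey and mtDNA-coded members in orange. Most points lie near 0, Uqcrh is at 0.32, Cox7a1 at 0.44, and mt-Atp6 has the widest interval, from -2.14 to 1.02.

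The 4 subunits of complex II, which is also an enzyme of the citric acid cycle, had a median log2 fold change of -0.0084 and a range of -0.067 to 0.060. Sdha, the flavoprotein that oxidises succinate, was at 56.4, 57.1 and 58.2 FPKM in the controls and 56.6, 57.8 and 57.5 FPKM in the knockdown libraries. These groups overlapped, and the log2 fold change was 0.0013 (SE 0.032), with a 95% interval of -0.075 to 0.077. Sdhb, the iron-sulfur subunit, was at 39.8, 39.0 and 39.8 FPKM in the controls and 37.4, 36.9 and 38.8 FPKM in the knockdown libraries, which all lay below the controls. Its log2 fold change was -0.067 (SE 0.035, adjusted p = 0.518 in limma). The anchors Sdhc and Sdhd were at -0.018 (SE 0.045) and 0.060 (SE 0.056), with overlapping groups.

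In complex III, 6 of 9 nuclear-coded members lay above control (53.0% of all genes did), and the median log2 fold change was 0.0056. Uqcrh, the acidic hinge protein that contacts cytochrome c1, was the highest of these, and the other 8 lay between -0.048 and 0.063. Uqcrh (ENSMUSG00000063882.12; GRCm38 chr4:116066965-116075071, minus strand) had values of 27.5, 27.4 and 28.9 FPKM in the controls and 33.8, 35.4 and 36.3 FPKM in the knockdown libraries. Every knockdown library exceeded every control, and the knockdown mean of 35.2 ± 1.28 FPKM was 125.9% of the control mean of 27.9 ± 0.82 FPKM (SD, n = 3 each). The log2 fold change was 0.32 (SE 0.042, 95% interval 0.22 to 0.42), and the limma BH adjusted p of 0.107 did not pass. A two-sided exact permutation test gave 0.1, the lowest p possible with 3 libraries in each group. Any gene whose groups do not overlap gets this p, so the 12 members that reached it are those without overlap. The test therefore adds nothing to the count of such members. Over 18 alternative settings the log2 fold change of Uqcrh stayed between 0.27 and 0.35, and its limma BH adjusted p between 0.0562 and 0.341. The core proteins Uqcrc1 and Uqcrc2, which support the complex on the matrix side, stood at -0.048 (SE 0.045) and 0.0043 (SE 0.048). The Rieske iron-sulfur protein gene Uqcrfs1 was at 0.0056 (SE 0.042), the cytochrome c1 gene Cyc1 at -0.040 (SE 0.044), Uqcr10 at 0.063 (SE 0.066) and Uqcrb at 0.063 (SE 0.038). The mobile carrier itself, Cycs, was at 18.9, 20.2 and 20.5 FPKM in the controls and 19.2, 20.6 and 19.3 FPKM in the knockdown libraries, a log2 fold change of -0.014 (SE 0.049) with overlapping groups.

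In complex IV, 6 of 13 nuclear-coded members lay above control (53.0% of all genes did). The log2 fold changes of the 13 had a median of -0.0025 and a range of -0.11 to 0.44. The 3 members at an unadjusted p under 0.05 are all small subunits numbered 7. Cox7a2, the widely expressed 7a isoform, was at 52.8, 50.4 and 52.0 FPKM in the controls and 57.0, 62.3 and 62.0 FPKM in the knockdown libraries. The groups did not overlap, and the log2 fold change was 0.22 (SE 0.045, adjusted p = 0.260 in limma). Cox7b, another small membrane subunit, was at 60.5, 63.8 and 65.0 FPKM in the controls and 68.1, 71.8 and 72.6 FPKM in the knockdown libraries, again without overlap, with a log2 fold change of 0.16 (SE 0.043, adjusted p = 0.292 in limma). Cox7a1 was at 2.49, 2.41 and 3.08 FPKM in the controls and 4.0, 4.64 and 3.31 FPKM in the knockdown libraries, without overlap but at low levels, with a log2 fold change of 0.44 (SE 0.12, adjusted p = 0.292 in limma). The other measured subunits numbered 7 lay below control without passing. Cox7c was at -0.097 on the log2 scale (SE 0.061) and Cox7a2l, which takes part in joining complexes III and IV, at -0.026 (SE 0.036).

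Isoform partners could be compared for subunits 6a and 7a. The widely expressed Cox6a1 was at 115 ± 4.80 FPKM in control libraries and 111 ± 8.44 FPKM after knockdown (SD, n = 3 each). Its partner Cox6a2, the isoform of heart and skeletal muscle, was present at 15.7 ± 0.61 and 14.6 ± 1.96 FPKM. Their log2 fold changes were -0.064 (SE 0.062) and -0.11 (SE 0.092), with overlapping groups in both. Exons of Cox6a2 overlap those of Itgad on the other strand over 10.3% of their length, and the sources used here do not give whether counting used strand. The regulatory subunit gene Cox4i1 was at 88.0, 89.0 and 107 FPKM in the controls and 87.6, 86.9 and 103 FPKM in the knockdown libraries, so replicate 3 was the highest in both groups. Cox5b, a zinc-binding subunit of the matrix side, was at 38.2 ± 2.16 and 42.4 ± 2.91 FPKM, with overlapping groups and a log2 fold change of 0.14 (SE 0.062, adjusted p = 0.449 in limma). Cox8a was at -0.011 (SE 0.061).

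In complex V, 13 of 17 nuclear-coded members lay above control (53.0% of all genes did). The median log2 fold change of the 17 was 0.044 in a range of -0.11 to 0.15. Subunits of the head and the central stalk lay on either side of control. Atp5b was at 113, 113 and 121 FPKM in the controls and 107, 112 and 122 FPKM in the knockdown libraries, with a log2 fold change of -0.026 (SE 0.055). Atp5a1, its alpha partner, was at 0.0072 (SE 0.037). Atp5c1, the gamma subunit of the central stalk, was at 59.1, 57.9 and 62.0 FPKM in the controls and 72.7, 62.3 and 62.3 FPKM in the knockdown libraries. Its knockdown libraries all lay above the controls, 2 of them by little, and the log2 fold change of 0.13 (SE 0.066) became 0.062 without knockdown replicate 1. Atp5d, the delta subunit of the same stalk, was at 51.0, 48.1 and 49.6 FPKM in the controls and 43.4, 46.0 and 48.0 FPKM in the knockdown libraries. It was the only member below control at an unadjusted p under 0.05, with a log2 fold change of -0.11 (SE 0.047, adjusted p = 0.435 in limma).

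Among the membrane parts of complex V, Atp5l, subunit g, was at 9.32, 8.83 and 9.35 FPKM in the controls and 10.2, 10.4 and 10.2 FPKM in the knockdown libraries. The groups did not overlap, and the log2 fold change was 0.15 (SE 0.043, adjusted p = 0.319 in limma). Atp5g3, one of 3 genes for the same c-ring protein, was at 35.2, 33.4 and 34.1 FPKM in the controls and 35.9, 36.7 and 37.9 FPKM in the knockdown libraries, a log2 fold change of 0.10 (SE 0.039, adjusted p = 0.389 in limma). Its partners Atp5g1 and Atp5g2 had overlapping groups, at 0.12 (SE 0.092) and -0.032 (SE 0.052). Atp5s, which the rule takes in by name and which is not a structural subunit of the core enzyme, was at 0.11 (SE 0.10). Among the nuclear-coded members of this complex Atp5j, Atp5mpl and Atp5o varied most within groups. Atp5j, subunit F6 of the peripheral stalk, was at 17.6, 18.2 and 10.6 FPKM in the controls and 19.8, 13.5 and 13.5 FPKM in the knockdown libraries. Its SD within groups on the log2 scale was 0.36, against a median of 0.066 over members and 0.078 over all genes. Exons of Atp5j overlap those of Gabpa on the other strand over 12.7% of their length.

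**Figure D3:**
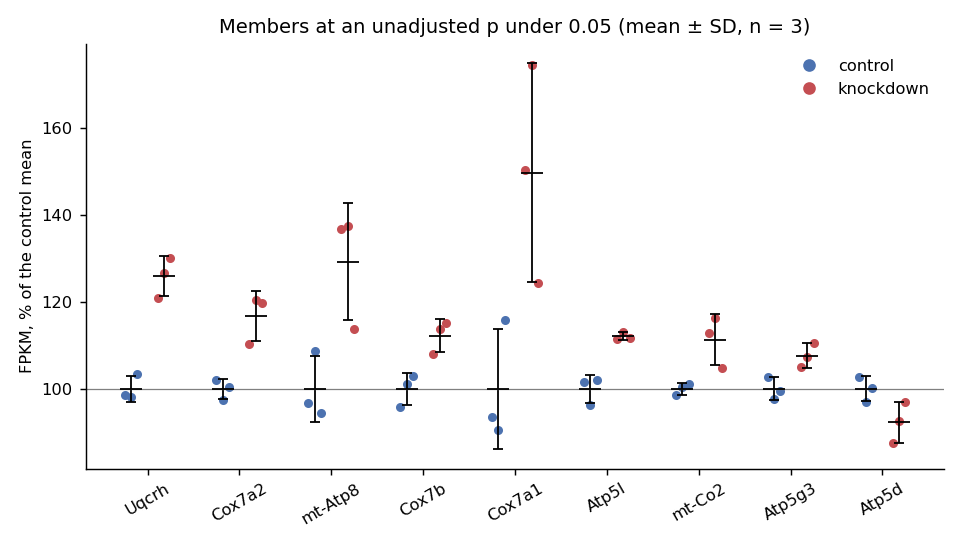
FPKM of the 9 members at an unadjusted p under 0.05 in each library, as a percentage of the control mean (y axis), with controls in blue and knockdown libraries in red. Horizontal bars are means and error bars SD (n = 3), and the knockdown libraries lie above the controls in 8 members and below them in Atp5d.

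Of the 6 mtDNA-coded members, 5 lay above control (53.0% of all genes did), and the median of their log2 fold changes was 0.096 over all 6. In 3 of them, mt-Atp8, mt-Co2 and mt-Co3, every knockdown library lay above every control, against 9.99% of all genes. mt-Co1, the catalytic subunit of complex IV, was at 4112, 4416 and 4136 FPKM in the controls and 4237, 4378 and 4058 FPKM in the knockdown libraries, a log2 fold change of 0.0010 (SE 0.055) with overlapping groups. mt-Co2, which accepts electrons from cytochrome c, was at 1410, 1435 and 1446 FPKM in the controls and 1615, 1664 and 1499 FPKM in the knockdown libraries, which all lay above. Its log2 fold change was 0.15 (SE 0.050, adjusted p = 0.358 in limma). mt-Co3, the third core subunit, was at 1173, 1219 and 1151 FPKM in the controls and 1255, 1289 and 1232 FPKM in the knockdown libraries. These groups did not overlap either, and the log2 fold change was 0.092 (SE 0.042, adjusted p = 0.477 in limma). mt-Cytb, the cytochrome b of complex III, was at 1444, 1555 and 1494 FPKM in the controls and 1602, 1669 and 1546 FPKM in the knockdown libraries, where the lowest knockdown library fell within the controls. Its log2 fold change was 0.10 (SE 0.049, adjusted p = 0.494 in limma).

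mt-Atp8 and mt-Atp6 code for a pair of membrane subunits of the ATP synthase from a single stretch of mtDNA. mt-Atp8 occupies chrM:7766-7969 and mt-Atp6 chrM:7927-8607, both on the plus strand, so their reading frames share 43 bases, and mt-Atp6 in turn shares its last base with mt-Co3. The end of mt-Atp8 and the start of mt-Atp6 are shown because reads in the shared bases, in capitals, can be counted for either gene (build GRCm38).
mt-Atp8 end, chrM:7890-7969: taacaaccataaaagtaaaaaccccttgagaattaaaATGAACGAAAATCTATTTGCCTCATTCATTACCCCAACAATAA
mt-Atp6 start, chrM:7927-8006: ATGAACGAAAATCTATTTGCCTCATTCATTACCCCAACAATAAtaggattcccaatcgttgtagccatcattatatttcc

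mt-Atp8 was at 933, 1047 and 910 FPKM in the controls and 1317, 1323 and 1096 FPKM in the knockdown libraries. Every knockdown library exceeded every control, and the knockdown mean was 129.3% of control, with a log2 fold change of 0.37 (SE 0.089, 95% interval 0.16 to 0.58, adjusted p = 0.287 in limma). The shared bases are 21.1% of its 204 bases and 6.31% of the 681 bases of mt-Atp6. mt-Atp8 had an estimated 1025169 to 2044361 aligned bases per library. mt-Atp6 was at 368, 1381 and 1220 FPKM in the controls and at 370, 1431 and 363 FPKM in the knockdown libraries. It thus stood at 2 levels that did not follow the groups, a low one in control replicate 1 and knockdown replicates 1 and 3, and a high one in the other 3 libraries. The ratio of mt-Atp6 to its neighbour mt-Co3 was 0.314, 1.13 and 1.06 in the controls and 0.295, 1.11 and 0.295 in the knockdown libraries. The ratio of mt-Atp8 to mt-Co3 did not split that way, at 0.795, 0.859 and 0.790 in the controls and 1.05, 1.03 and 0.890 in the knockdown libraries. The SD of mt-Atp6 within groups, 1.09 on the log2 scale, was larger than that of 99.9% of genes tested, at an estimated 1398087 to 6687424 aligned bases per library. Its log2 fold change of -0.56 (SE 0.67, 95% interval -2.14 to 1.02, adjusted p = 0.775 in limma) moved between -1.22 without knockdown replicate 2 and -0.22 without control replicate 2. A near-identical copy of mt-Atp6 lies on chromosome 1 (Gm10925, 100% identity over 99.6% of its length), as do copies of mt-Co2 (Gm28661) and mt-Co3 (Gm28437), and these copies were not analysed here. The part of the shared bases and of these copies in the 2 levels was not tested.

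**Figure D4:**
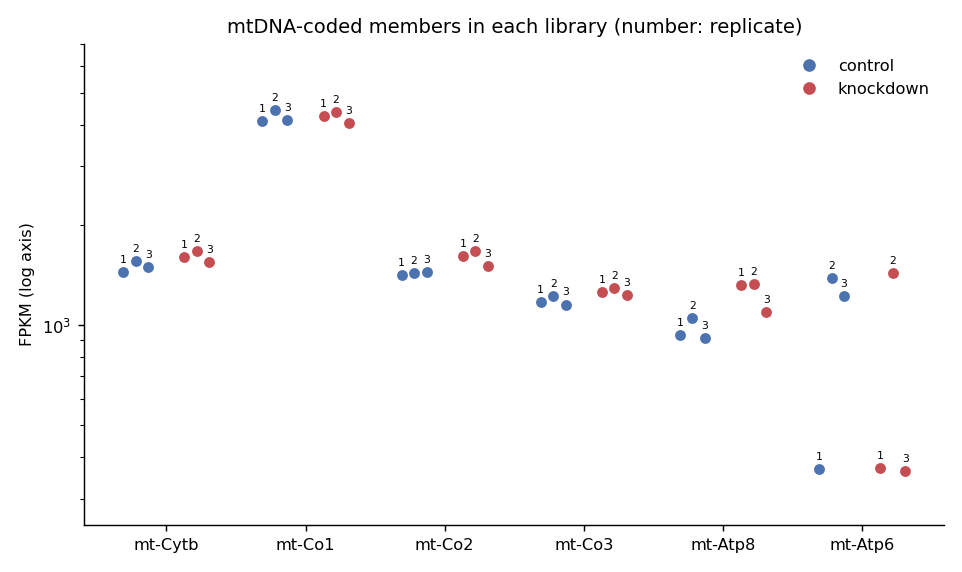
FPKM (y axis, log scale) of the 6 mtDNA-coded members in each library, with controls in blue, knockdown libraries in red and the replicate number above each point. mt-Atp6 lies near 370 FPKM in control replicate 1 and knockdown replicates 1 and 3 and between 1220 and 1431 FPKM in the other 3 libraries, while the other 5 members have SDs within groups of 0.038 (mt-Co3) to 0.13 (mt-Atp8) on the log2 scale.

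Set against each other, the mtDNA-coded members had a median log2 fold change 0.081 above that of the nuclear-coded members (0.096 against 0.015), where the SD of that difference between libraries was 0.071. With quantile normalization the mtDNA-coded median was 0.0, the difference turned to -0.021 and mt-Co3 to -0.065. This method gives genes of the same rank the same value in every library, and the mtDNA-coded members are among the most abundant transcripts. It can thus remove a shift that they share, so it cannot decide whether that shift is stable. Of the 44 nuclear-coded members 27 lay above control (53.0% of all genes did). The nuclear-coded members summed to 2339 ± 35.3 FPKM in control libraries and 2380 ± 88.5 FPKM after knockdown, and the mtDNA-coded ones to 10283 ± 809 and 10648 ± 1004 FPKM (SD, n = 3 each). The ratio of the mtDNA-coded to the nuclear-coded sum was 4.04, 4.80 and 4.36 in the controls and 4.55, 4.90 and 3.98 in the knockdown libraries. Without mt-Atp6 it was 3.88, 4.198 and 3.85 in the controls and 4.39, 4.31 and 3.84 in the knockdown libraries. The groups overlapped in both ratios. By complex, the nuclear-coded sums were 199.96 ± 3.21 and 201.0 ± 6.46 FPKM for complex II, 503 ± 3.31 and 517 ± 24.5 FPKM for complex III, 965 ± 22.6 and 978 ± 46.7 FPKM for complex IV, and 652 ± 13.4 and 664 ± 18.9 FPKM for complex V. Each knockdown mean was 101% to 103% of control, and the groups overlapped in every complex.

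The mtDNA-coded members are also low in GC content. Their median was 38.7%, against 49.9% for the nuclear-coded members. Across 10684 protein-coding genes, which are not independent replicates, Spearman's rho between log2 fold change and GC content was -0.30, and over the 50 members it was -0.31. With the trend of GC content and length removed from each library, the median log2 fold change was -0.0022 for the mtDNA-coded and -0.010 for the nuclear-coded members. That removal took mt-Co2 from 0.15 to 0.042, mt-Cytb from 0.10 to 0.0097, mt-Co3 from 0.092 to -0.014 and mt-Atp8 from 0.37 to 0.19. Uqcrh went from 0.32 to 0.27, Cox7a2 from 0.22 to 0.19 and Cox7b from 0.16 to 0.092. No member passed the limma test after the removal. At an unadjusted p under 0.05 by limma were 7 of the 50, against 1491 of all 12198 genes in that fit. Of these 7 members, 5 were among the 9 before the removal. Only 4 of the 7 lay above control, against 8 of the 9 before.

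**Figure D5:**
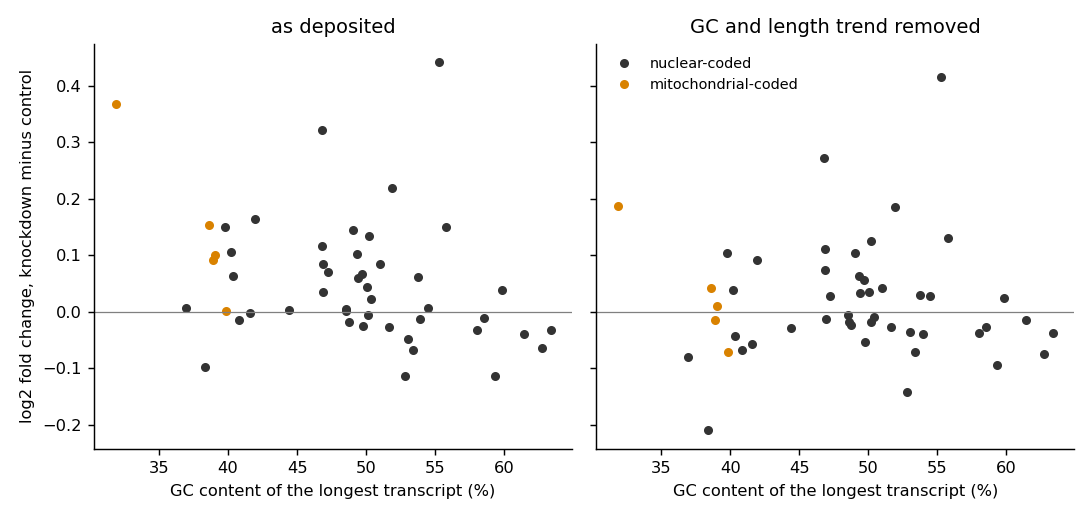
Log2 fold change (y axis, knockdown minus control) against GC content of the longest transcript (x axis, percent) for 49 members, as deposited on the left and with the GC and length trend removed on the right. mt-Atp6, at -0.56 before and -0.69 after, lies outside the plotted range and is left out, and 3 of the other mtDNA-coded members (orange) lie near 0 on the right, with mt-Co1 at -0.072 and mt-Atp8 at 0.19.

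Promoters of nuclear-coded respiratory genes are known to bind the factor NRF1 and GABP, a member of the ETS family, and both sequences were searched in RefSeq promoters (build GRCm38.p6, from 250 bases before to 50 after each gene's start, both strands). A promoter was found by symbol for 32 of the 44 nuclear-coded members. The NRF1 letters GCGCANGCGC were in 10 of these 32 (31.3%), against 5.19% of all 27025 genes with a promoter. The ETS letters CCGGAAG were in 12 (37.5%), against 9.93%, and 4 members, Atp5h, Atp5k, Cox6a1 and Sdhd, held both. Neither of the 2 motifs contains the other. One window of 30 bases is shown for each motif and complex, in the direction of the gene with the motif or its reverse complement in capitals, to show the letters shared across complexes.
Sdha (complex II), NRF1 letters, chr13:74350276-74350305, minus strand: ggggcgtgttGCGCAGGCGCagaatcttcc
Uqcrc1 (complex III), NRF1 letters, chr9:108936668-108936697, plus strand: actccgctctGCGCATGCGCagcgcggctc
Cox6a1 (complex IV), NRF1 letters, chr5:115349101-115349130, minus strand: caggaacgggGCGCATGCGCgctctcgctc
Atp5g2 (complex V), NRF1 letters, chr15:102671070-102671099, minus strand: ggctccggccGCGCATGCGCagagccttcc
Sdhd (complex II), ETS letters, chr9:50603878-50603907, minus strand: accgtctcctgcCTTCCGGttcacgcttca
Uqcrh (complex III), ETS letters, chr4:116075063-116075092, minus strand: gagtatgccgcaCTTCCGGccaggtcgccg
Cox6b1 (complex IV), ETS letters, chr7:30626125-30626154, minus strand: ctcctctcgcagCTTCCGGccagtcggaat
Atp5h (complex V), ETS letters, chr11:115419940-115419969, minus strand: ccaaggagagaaCTTCCGGcaactctcttc

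Among the 32 members with a promoter, the median log2 fold change was 0.048 with the NRF1 letters and 0.041 without. It was 0.049 and 0.025 for the ETS letters, given as descriptions with no test. Over all 44 nuclear-coded members the median was 0.015, so the 32 may not stand for the rest. The YY1 letters AAGATGGC were in 2 of the 32 promoters (6.25%, against 3.19% of genes), CCAAT in 18 (56.3%, against 41.1%) and the GC box GGGCGG in 11 (34.4%, against 38.2%). With and without these letters the medians were 0.034 and 0.049 for YY1, 0.065 and 0.014 for CCAAT, and -0.014 and 0.070 for the GC box. A match is only a run of letters, and no binding was measured here.

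Among lists of genes that build, regulate or work beside these complexes, 1 gene was called, Glrx2. Over all genes tested by limma, 0.0818% were called and 53.0% lay above control. At an unadjusted p under 0.05 by limma, 6.47% of all genes were higher and 4.82% lower. Of 42 assembly factors of complexes II to V, all in the table, 0 were called, 5 were at an unadjusted p under 0.05 above control and 2 below, and the median log2 fold change was 0.014. Cox16 and Cox20, which act in the maturation of mt-Co2, were at log2 fold changes of 0.25 (SE 0.047) and 0.34 (SE 0.065), each without overlap of the groups and at a limma BH adjusted p of 0.239. Sdhaf4, an assembly factor of Sdha, was at 0.32 (SE 0.081, adjusted p = 0.292 in limma). Of 18 genes for mtDNA maintenance and transcription, 12 lay above control and 0 were called, with a median of 0.039. Polrmt, the mitochondrial RNA polymerase, was at 5.63 ± 0.32 FPKM in control libraries and 4.65 ± 0.06 FPKM after knockdown (SD, n = 3 each; log2 fold change -0.23, adjusted p = 0.287 in limma). Tfam, which packages mtDNA and activates its transcription, was at 6.26 ± 0.07 and 6.98 ± 0.19 FPKM (0.14, adjusted p = 0.366 in limma), and Mterf3, a regulator of that transcription, at a log2 fold change of 0.28.

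Of 16 measured genes for mitochondrial RNA stability and processing, 13 lay above control (53.0% of all genes did), with a median log2 fold change of 0.050. Of these 16, 0 were at an unadjusted p under 0.05 by limma, against 11.3% of all genes. Slirp, a stabiliser of mitochondrial messenger RNA, was at 0.10, Fastkd5 at 0.14 and the transfer RNA processing subunit gene Trmt10c at 0.15. Of 9 measured transcription factors and coactivators of respiratory genes, 3 lay above control, with a median of -0.038 and 0 called by limma (2 at an unadjusted p under 0.05). The coactivator gene Ppargc1b was at 6.35 ± 0.62 FPKM in control libraries and 5.19 ± 0.37 FPKM after knockdown (SD, n = 3 each; log2 fold change -0.25, adjusted p = 0.356 in limma), Yy1 at 0.12 and Ppard at -0.11. Nrf1 was at -0.038 and Gabpa at 0.049, with overlapping groups.

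Over all genes tested, 53.0% lay above control and 11.3% were at an unadjusted p under 0.05 by limma. Of 18 mitochondrial mass markers, 12 lay above control (median log2 fold change 0.026) and 0 were called by limma, with 3 at an unadjusted p under 0.05. These 3 were the import receptor genes Tomm70a (0.13) and Tomm20 (0.11) and the outer membrane channel gene Vdac3 (0.13). The list of the citric acid cycle also took in genes of pyruvate dehydrogenase and pyruvate carboxylase (Pcx). In it, 11 of 17 genes lay above control (median 0.022) and 0 were called by limma. At an unadjusted p under 0.05 by limma were 3, with Ogdh at -0.10, Pcx at -0.13 and Suclg2 at 0.30. The 7 complex I genes of mtDNA had a median of 0.056 with 5 above control and 0 called (limma, 2 at an unadjusted p under 0.05), among them mt-Nd3 at 0.30, mt-Nd5 at 0.13 and mt-Nd4 at 0.12. In the list of mitochondrial oxidant defence, which also took in Sod1 and Cat, 1 of 11 genes was called (0.0818% of all genes were), the glutaredoxin gene Glrx2. It rose, with 1.68 ± 0.03 FPKM in controls against 2.83 ± 0.10 FPKM after knockdown (SD, n = 3 each; log2 fold change 0.51, adjusted p = 0.0362 in limma). With any 1 of the 6 libraries left out the adjusted p of Glrx2 was 0.0796 to 0.163 in limma, past the threshold in none of those fits. Sod2 was at -0.097 and Txnrd2 at 0.12.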

How the data were processed

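The deposited table names no unit. Its values were treated as FPKM computed by the authors, since they are fractional and, multiplied by length, form steps: in 1069 to 1162 single-transcript genes per library, 73.5% to 76.0% came within 0.1 of a whole multiple (20% by chance). Per the labels' protocols, TRIzol-isolated RNA was cleared of ribosomal RNA and prepared as stranded libraries. The submitters' processing notes list StringTie, HISAT2 and edgeR with no version, and hg38, a human build, although the identifiers are mouse Ensembl genes. Annotation and strand setting were not given in the sources used here. Across deposited genes, the lowest higher-group mean was 0.501 FPKM.

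Identifiers without version were matched to GENCODE M21 (GRCm38; 12300 of 12327, and 45 of the 50 members with version). The 12222 genes reaching 0.5 FPKM in 3 or more libraries were tested with limma 3.58.1 (R 4.3.3; empirical Bayes with a mean-variance trend) on log2(FPKM + 1), with BH adjustment over all. As a check of the code, the fit was run on simulated data with independent normal noise. Those data held no GC trend and no depth difference, so the check does not cover these. Copies were sought with blastn 2.17.0 at 95% identity over 50% of a transcript, and 14 members had one. Python 3.11.15 with numpy 2.4.6, pandas 2.3.3, scipy 1.17.1 and matplotlib 3.10.9 did the rest. Named genes are all mtDNA-coded members, Cycs, Gch1, up to 4 nuclear-coded members per complex with the smallest p, the most and least abundant, tissue isoforms with their partners, and up to 3 genes per pathway list. Other members and list genes were named for their role, or after their values were seen. Members and lists were chosen with earlier results of these data known. Alternatives were a replicate block, each library left out, other pseudocounts (0.1 and 0.5), no filter, a minimum mean of 5 FPKM, 3 other scalings, robust moderation, no trend, and removal of the trend of GC content and length by loess (span 0.3). Precision rests on the estimated depth and 3 libraries per group, and no counts were used.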

Additional observations from a re-analysis of the deposited data

How the results depend on the processing

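No member passed the limma threshold in any of 19 fits, and the number at an unadjusted p under 0.05 was 6 to 12 over the 18 alternatives (9 as reported). It was 12 with scaling to the sum of nuclear genes and 6 without knockdown replicate 2 and with GC and length removed together with the replicate block. Over all genes, the number at an unadjusted p under 0.05 by limma moved too. With the minimum mean of 5 FPKM it was 791 of 7079. In the other alternatives it was 1036 to 1657 of 12198 to 12327 genes. Of 502 comparisons of 28 named members with their reported values, 0 gained or lost the threshold and 29 changed sign, in 9 members. With each library left out, the median log2 fold change of nuclear-coded members of complex V was 0.036 to 0.092 (highest without control replicate 1) and that of complex IV -0.031 to 0.053 (highest without knockdown replicate 1). The mtDNA-coded median was 0.073 to 0.12 in these fits and its difference from the nuclear-coded median 0.052 to 0.12. With quantile normalization, which gives genes of the same rank the same value in every library, the mtDNA-coded median was 0.0 and the difference -0.021. With the GC and length trend removed they were -0.0022 and 0.0082. The cause was not tested. In alternatives chosen after seeing the data, the mtDNA-coded median was 0.10 without mt-Atp6 and the nuclear-coded median 0.0049 without members that have a near-identical copy. All members exceeded the filter, and the low level of Cox7a1 and Atp5s limits their precision.

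A replicate block took its numbers from the titles. Same-numbered libraries correlated, as deviations from their group means, at 0.095, 0.059 and 0.094, each most with the library of its number. These values are small, and control replicate 3 with knockdown replicate 1 was at -0.0999. Deviations from a mean of 3 libraries sum to 0, so the values are not independent and cannot decide whether libraries were paired. No label states a pairing. With the block 0 genes were called by limma, and 1330 of 12222 were at an unadjusted p under 0.05. Of the 50 members, 8 were at an unadjusted p under 0.05 by limma, with Uqcrh at a limma BH adjusted p of 0.275. Gch1 kept its log2 fold change of -0.96 at an adjusted p of 0.0604. With GC and length removed and the replicate block, the mtDNA-coded median was -0.0022, the difference 0.0082 and Gch1 -0.97 (adjusted p = 0.0767, limma).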
